A study of Homo sapiens with 3 samples.

Results

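Ferritin and iron regulation genes were followed in HEK293T, a line of human embryonic kidney cells, after siRNA against Arkadia, siRNA against ESRP2 or a negative control siRNA. The set holds 9 of the 23284 genes measured: FTL, FTH1, NCOA4, PCBP1, PCBP2, TFRC, SLC40A1, ACO1 and IREB2. They were taken by name from the gene table, and their 20 isoforms from the 41138 of the isoform table. The set was chosen by gene function and by the measured FPKM ratios between these same libraries, so the values below describe it and test nothing. Arkadia is a ubiquitin ligase of TGF-beta signalling encoded by RNF111, and ESRP2 is an epithelial splicing regulator. All 3 groups were grown without added TGF-beta, transfected with a lipid reagent while being seeded, and harvested 48 h later. Each group is 1 library of polyadenylated RNA prepared for Ion sequencing.

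Cells store iron inside ferritin, a protein shell built from heavy (FTH1) and light (FTL) chains, take it up through the transferrin receptor (TFRC) and release it through ferroportin (SLC40A1). The poly(C)-binding proteins PCBP1 and PCBP2 carry iron to ferritin, and NCOA4 delivers ferritin to lysosomes for breakdown. The iron regulatory proteins ACO1 (IRP1) and IREB2 (IRP2) sense iron and, when it is scarce, bind RNA hairpins called iron-responsive elements. Binding near the start of the FTH1 and FTL messages blocks their translation, whereas binding in the 3′ untranslated region (UTR) of TFRC protects that message from decay. Much of ferritin control is therefore translational, and transcript levels do not report protein.

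These elements connect the members, and they are shown because the iron regulatory proteins are known to act on them. A hairpin was defined as a bulged C, a stem of 5 base pairs (G-T pairs allowed) and the loop CAGTGN, and was searched on the sense strand of GENCODE 29 transcripts. Each is printed 5′ to 3′ as 29 nt, with T for U and the loop in capitals.
FTL: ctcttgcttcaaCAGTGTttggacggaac
FTH1: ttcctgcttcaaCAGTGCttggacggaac
SLC40A1: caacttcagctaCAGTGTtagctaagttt
TFRC hairpin 1: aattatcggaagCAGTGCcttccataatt
TFRC hairpin 2: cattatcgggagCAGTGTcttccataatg
TFRC hairpin 3: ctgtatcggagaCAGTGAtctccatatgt
TFRC hairpin 4: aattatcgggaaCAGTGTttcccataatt

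On GRCh38 the FTL hairpin lies at chr19:48965335-48965363 on the plus strand, and the FTH1 hairpin at chr11:61967574-61967602 on the minus strand. The SLC40A1 hairpin lies at chr2:189580661-189580689 on the minus strand. These 3 are in the 5′ UTR, where 17 of 18532 transcripts searched (0.0917%) held such a hairpin. The 4 TFRC hairpins are in the 3′ UTR on the minus strand, at chr3:196050979-196051007, chr3:196050575-196050603, chr3:196050510-196050538 and chr3:196050463-196050491. A 3′ UTR hairpin occurred in 0.480% of transcripts, and TFRC was the only gene, 1 in all, with at least 4. No such letters were found in the transcripts searched for NCOA4, PCBP1, PCBP2, ACO1 or IREB2.

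Levels are FPKM, fragments scaled to transcript length and library size, so that genes can be compared, and each is given with the interval the authors deposited. The low values implied 8.80, 12.2 and 11.7 M reads in the Arkadia, ESRP2 and control siRNA libraries. RNF111 was 1.15 with Arkadia siRNA and 6.38 with control siRNA, and ESRP2 was 4.27 with ESRP2 siRNA and 14.8 with control siRNA, so each target was lower in its own library, although the ESRP2 intervals (0.0878 to 9.33 and 3.34 to 26.3) overlapped. All 8 listed markers of HEK293T cells, such as VIM and KRT18, had a mean FPKM of at least 1. The 5 erythroid, 5 hepatocyte and 3 endothelial markers were each below 1 in every library, with HBB and GATA1 at 0. Summed over each list in the Arkadia, ESRP2 and control siRNA libraries, 5 macrophage markers gave 1.0, 0.872 and 1.97, 4 epithelial markers 2.46, 2.43 and 3.22, and 4 fibroblast markers 3.62, 2.47 and 1.94.

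FTL (chr19:49468566-49470136, hg19), the light chain of ferritin, was the most abundant member, and its level was higher in both knockdown libraries. It stood at an FPKM of 1358 with Arkadia siRNA, with an authors' interval of 661 to 2031, at 2201 (1080 to 3316) with ESRP2 siRNA and at 710 (344 to 1073) with control siRNA. The ESRP2 siRNA library was the highest, 3.10-fold above control siRNA, and there the intervals were apart by a small margin (1080 against 1073). The Arkadia siRNA library was 1.91-fold above control siRNA, with intervals that overlapped. With 1 library per group there is no replicate spread, and fewer cells that express a gene cannot be told apart from less of its RNA per cell. FTL made up 0.210%, 0.345% and 0.122% of all summed FPKM with Arkadia, ESRP2 and control siRNA, and ranked 71st, 30th and 111th among genes. On the log2(FPKM + 1) scale used below, the differences were 0.93 for Arkadia siRNA and 1.63 for ESRP2 siRNA, and the ESRP2 siRNA difference stood at place 68 from the top of 11870 genes compared.

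FTH1 (chr11:61717356-61735132), the heavy chain that carries the iron-oxidising activity, had another order across the libraries. Its FPKM was 375 (190 to 558) with Arkadia siRNA, 157 (77.3 to 237) with ESRP2 siRNA and 231 (114 to 347) with control siRNA. It was thus highest with Arkadia siRNA (log2 difference 0.70 from control siRNA) and lowest with ESRP2 siRNA (-0.55), and all 3 intervals overlapped. The FPKM of FTL exceeded that of FTH1 3.62-fold with Arkadia siRNA, 14.0-fold with ESRP2 siRNA and 3.08-fold with control siRNA. Between Arkadia and ESRP2 siRNA the 2 transcripts differed in opposite directions, by 1.25 for FTH1 and -0.70 for FTL. Both chains have many copies in the genome: GENCODE 29 lists 25 pseudogenes named after FTH1 and 16 after FTL, so reads may be split and both values are uncertain. The FTH1 locus also overlaps BEST1, which was below 1 in each library. Of the relatives in the gene table, FTH1P3 was 0.409 with Arkadia siRNA and listed at 0 with ESRP2 and control siRNA, FTLP10 and FTHL17 were listed at 0 in each library, and mitochondrial ferritin FTMT reached 0.115 with control siRNA.

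**Figure D1:**
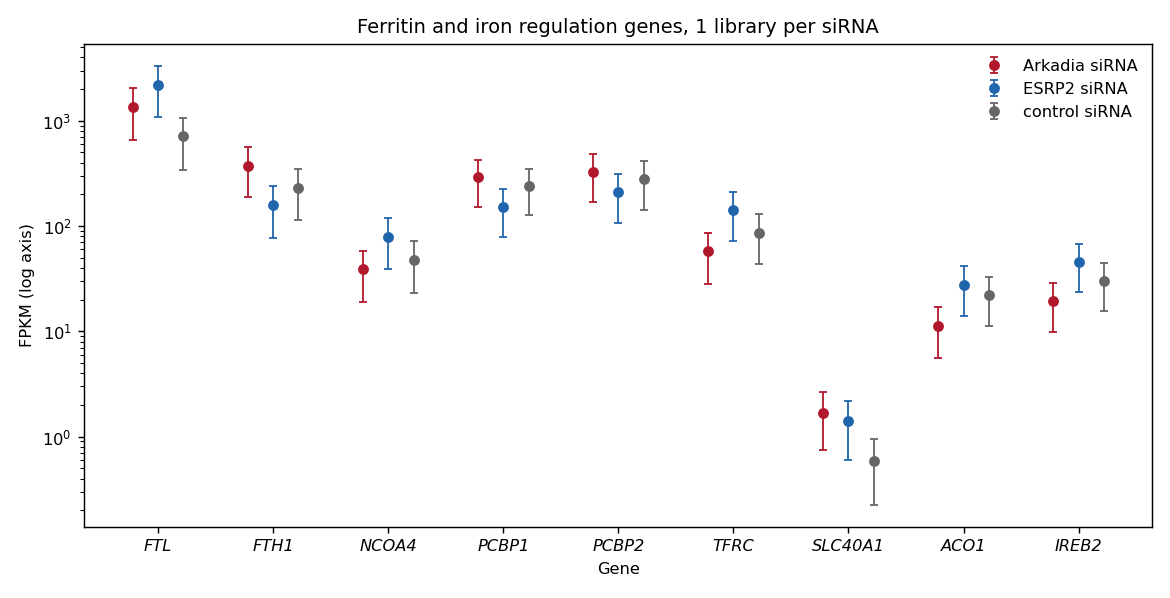
FPKM of the 9 iron genes (log axis) in the Arkadia, ESRP2 and control siRNA libraries, left to right within each gene. Points are single libraries and bars are the authors' intervals. FTL with ESRP2 siRNA (1080 to 3316) is the one member interval that clears control siRNA (344 to 1073), and the bars of the other members overlap.

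Transcripts of the proteins that load and unload ferritin had 2 orders across the libraries. NCOA4 (chr10:51565108-51590734), the receptor for ferritin breakdown, had an FPKM of 38.8 (19.1 to 58.5) with Arkadia siRNA, 79.1 (39.1 to 119) with ESRP2 siRNA and 47.5 (23.3 to 71.7) with control siRNA, so it was highest with ESRP2 siRNA (log2 difference 0.72). PCBP1 (chr2:70314585-70316334) had 290 (153 to 425) with Arkadia siRNA, 152 (79.5 to 224) with ESRP2 siRNA and 238 (126 to 350) with control siRNA, and was lowest with ESRP2 siRNA (-0.64). PCBP2 (chr12:53845886-53893444) had 323 (168 to 480) with Arkadia siRNA, 209 (107 to 311) with ESRP2 siRNA and 280 (142 to 418) with control siRNA. All of these intervals overlapped between libraries. Its order across libraries matched that of PCBP1, but its difference with ESRP2 siRNA, -0.42, did not reach 1.5-fold. The PCBP1 and PCBP2 coding sequences were 77.7% identical in a global alignment, against 63.3% for FTL and FTH1, and PCBP2 exceeded PCBP1 1.12-fold, 1.37-fold and 1.18-fold with Arkadia, ESRP2 and control siRNA.

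Of the genes for uptake and export, the uptake receptor was well expressed and the exporter barely so. TFRC (chr3:195776155-195809032) had an FPKM of 57.5 (28.3 to 86.8) with Arkadia siRNA, 142 (72.0 to 212) with ESRP2 siRNA and 86.7 (43.5 to 130) with control siRNA. The TFRC transcript was thus highest with ESRP2 siRNA (log2 difference 0.70) and lowest with Arkadia siRNA (-0.58). The latter lay just short of 1.5-fold on the log2(FPKM + 1) scale and just past it as a plain ratio (0.663-fold). The TFRC isoforms share a coding sequence, and NM_001128148 made up 99.0% of TFRC with Arkadia siRNA, 99.6% with ESRP2 siRNA and 100% with control siRNA. SLC40A1 (chr2:190425316-190445537), the iron exporter, was low, at 1.69 (0.750 to 2.63), 1.39 (0.60 to 2.18) and 0.588 (0.225 to 0.95) with Arkadia, ESRP2 and control siRNA. Those values rest on an estimated 50.0, 56.8 and 23 reads. It was higher in both knockdown libraries, 2.88-fold and 2.37-fold as a plain FPKM ratio and by 0.76 and 0.59 on the log2(FPKM + 1) scale, which shrinks low genes. After the GC subtraction described below, its ESRP2 siRNA difference was 0.18, inside 1.5-fold.

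Transcripts of both iron regulatory proteins were lowest with Arkadia siRNA and highest with ESRP2 siRNA, as those of TFRC and NCOA4 were, with intervals that overlapped. ACO1 (chr9:32384601-32450832), which doubles as cytosolic aconitase when it holds an iron-sulfur cluster, had an FPKM of 11.3 (5.60 to 17) with Arkadia siRNA, 27.8 (14.1 to 41.4) with ESRP2 siRNA and 22.2 (11.2 to 33.2) with control siRNA. With Arkadia siRNA it was 0.508-fold its control level (log2 difference -0.92), at place 374 from the bottom of 11870 genes, while the difference with ESRP2 siRNA was 0.31. IREB2 (chr15:78730518-78793798) had 19.3 (9.83 to 28.9), 45.2 (23.4 to 66.9) and 30 (15.4 to 44.4) in the Arkadia, ESRP2 and control siRNA libraries. It was lower with Arkadia siRNA (-0.61). Its 0.58 with ESRP2 siRNA lay just short of 1.5-fold on the log2(FPKM + 1) scale and just past it as a plain ratio (1.51-fold). After the GC subtraction described below, IREB2 was -0.15 with Arkadia siRNA and -0.02 with ESRP2 siRNA. ACO1 was then -0.74 and 0.00, so the higher level of both with ESRP2 siRNA did not remain. IREB2 exceeded ACO1 1.71-fold, 1.63-fold and 1.35-fold with Arkadia, ESRP2 and control siRNA.

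In order of mean FPKM the members ran FTL (1423), PCBP2 (271), FTH1 (254), PCBP1 (227), TFRC (95.3), NCOA4 (55.1), IREB2 (31.5), ACO1 (20.4) and SLC40A1 (1.22). The intervals of PCBP2, FTH1 and PCBP1 overlapped in each library, as did those of TFRC and NCOA4, of NCOA4 and IREB2 and of IREB2 and ACO1, so the order among those neighbours is not resolved. FTL stood above its nearest neighbour by more than the intervals in the Arkadia and ESRP2 siRNA libraries, but not with control siRNA, where PCBP2 reached 418 and FTL began at 344. With ESRP2 siRNA, TFRC (142) stood close to PCBP1 (152) and FTH1 (157).

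All 9 members passed the filter of a mean FPKM of at least 1, and SLC40A1, with 1.22, was the one near it. SLC40A1 was 0.588 with control siRNA, so it passed only through the knockdown libraries. Its being counted as higher below therefore follows in part from the filter, and a filter at a mean FPKM of 5 leaves it out. With Arkadia siRNA, FTL, FTH1 and SLC40A1 were at least 1.5-fold higher than with control siRNA (3 of 9, where 9.81% of all genes were), and ACO1 and IREB2 were lower (2 of 9, where 11.8% were), in all 5 of 9 members and 21.6% of genes. On the log2(FPKM + 1) scale none reached 2-fold (0 of 9, where 1.68% of genes were higher and 2.24% lower). As a plain FPKM ratio SLC40A1 was 2.88-fold higher with Arkadia siRNA. None had intervals apart from control siRNA (0.194% and 0.244%). With ESRP2 siRNA, FTL, NCOA4, TFRC and SLC40A1 were higher (4 of 9, against 19.9% of all genes) and PCBP1 was lower (1 of 9, against 11.4%), in all 5 of 9 members and 31.3% of genes. The ESRP2 siRNA split depended on scaling: it was 3 higher and 2 lower after rescaling by the median of ratios (17.2% and 13.3% of all genes), and 1 higher (FTL) and 3 lower (FTH1, PCBP1 and PCBP2) at the upper quartile (12.9% and 17.3%). On the log2(FPKM + 1) scale only FTL with ESRP2 siRNA passed 2-fold against control siRNA, where 5.45% of genes were so. As a plain FPKM ratio SLC40A1 was 2.37-fold higher with ESRP2 siRNA. Only FTL with ESRP2 siRNA had intervals apart from control siRNA, where 0.868% of genes were so. No member was lower by either rule (2.42% and 0.413%). These comparisons share the control library, and the members were chosen with these ratios known, so nothing is read from the counts.

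The comparison of Arkadia siRNA with ESRP2 siRNA, which does not use the control library, gave wider gaps. Of the 3 comparisons it also followed transcript GC content most closely, as described below. FTH1 (1.25), PCBP1 (0.92) and PCBP2 (0.63) were at least 1.5-fold higher with Arkadia siRNA (3 of 9, where 21.2% of all genes were). TFRC (-1.29), ACO1 (-1.23), IREB2 (-1.19), NCOA4 (-1.01) and FTL (-0.70) were lower (5 of 9, where 30.8% were), which made 8 of 9 members and 52.0% of genes, and SLC40A1 (0.17) was neither. FTH1 was past 2-fold (where 8.90% of genes were higher), as were TFRC, ACO1, IREB2 and NCOA4 (where 15.5% were lower). All 9 pairs of intervals overlapped, while 1.90% of genes were higher and 4.47% lower with intervals apart. The median log2 difference of the members was 0.21, 0.58 and -0.70 for Arkadia against control, ESRP2 against control and Arkadia against ESRP2 siRNA, where that of all genes was -0.02, 0.12 and -0.14.

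Base composition moved with these differences. Across 11760 genes the log2 difference rose with transcript GC content for Arkadia siRNA (Spearman's rho 0.56) and fell with it for ESRP2 siRNA (-0.64), where genes are not independent replicates. In the lowest GC decile the median difference was -0.46 with Arkadia siRNA and 0.60 with ESRP2 siRNA. Between Arkadia and ESRP2 siRNA rho was 0.75, and the median of that decile was -1.07. The members ranged in GC content from 38.3% for IREB2, 42.4% for SLC40A1, 42.6% for TFRC, 45.7% for ACO1 and 46.7% for NCOA4 to 50.1% for FTH1, 51.8% for PCBP2, 55.2% for PCBP1 and 56.3% for FTL. IREB2, TFRC, ACO1 and NCOA4, all under 50% GC, were the members with a positive ESRP2 and a negative Arkadia siRNA difference, and SLC40A1, also under 50%, was positive in both.

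**Figure D2:**
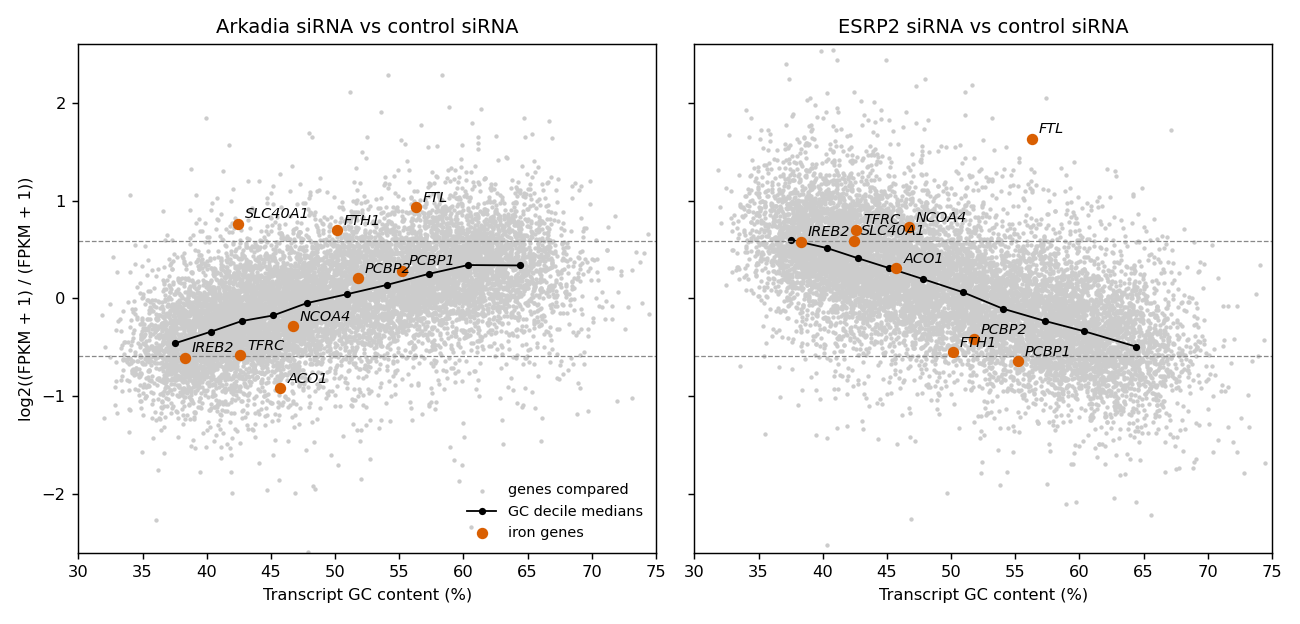
log2((FPKM + 1)/(FPKM + 1)) against transcript GC content (%) for Arkadia siRNA over control siRNA (left) and ESRP2 siRNA over control siRNA (right). Grey points are genes, the black line joins GC decile medians, orange points are the iron genes and dashed lines mark 1.5-fold; 4 and 8 genes lie outside the axes. IREB2 and ACO1 lie on or beside the black line in the right panel, and FTL (1.63) lies far above it.

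After subtraction of the median of each gene's GC decile, some members were close to 0 and others were not. IREB2 was then -0.15 with Arkadia siRNA and -0.02 with ESRP2 siRNA, ACO1 0.00 with ESRP2 siRNA, and TFRC -0.35 and 0.29 with Arkadia and ESRP2 siRNA, all inside 1.5-fold. FTL with ESRP2 siRNA was larger, at 1.86, and 0.170% of the 1176 genes in its decile were as high. With Arkadia siRNA, FTL was 0.68, FTH1 0.65, SLC40A1 0.99 and ACO1 -0.74, all past 1.5-fold. With ESRP2 siRNA, SLC40A1 was 0.18, against 0.59 before the subtraction, and so no longer past 1.5-fold. FTH1 with ESRP2 siRNA was -0.61, past 1.5-fold, and NCOA4 (0.53) and PCBP1 (-0.54) were short of it. By count, 3 members were then higher and 1 lower with Arkadia siRNA, where 6.35% and 7.01% of all genes were. With ESRP2 siRNA 1 was higher and 1 lower (9.20% and 7.70% of all genes), and between Arkadia and ESRP2 siRNA 4 were higher and 4 lower (12.4% and 14.1%). In the comparison of Arkadia with ESRP2 siRNA, IREB2 left the count (-1.19 before, -0.11 after) and the barely expressed SLC40A1 entered it (0.17 before, 0.80 after). The median over the members was then 0.15, 0.00 and -0.11 for the 3 comparisons in the order above. Whether GC content contributes to the members' differences was not tested beyond this subtraction.

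**Figure D3:**
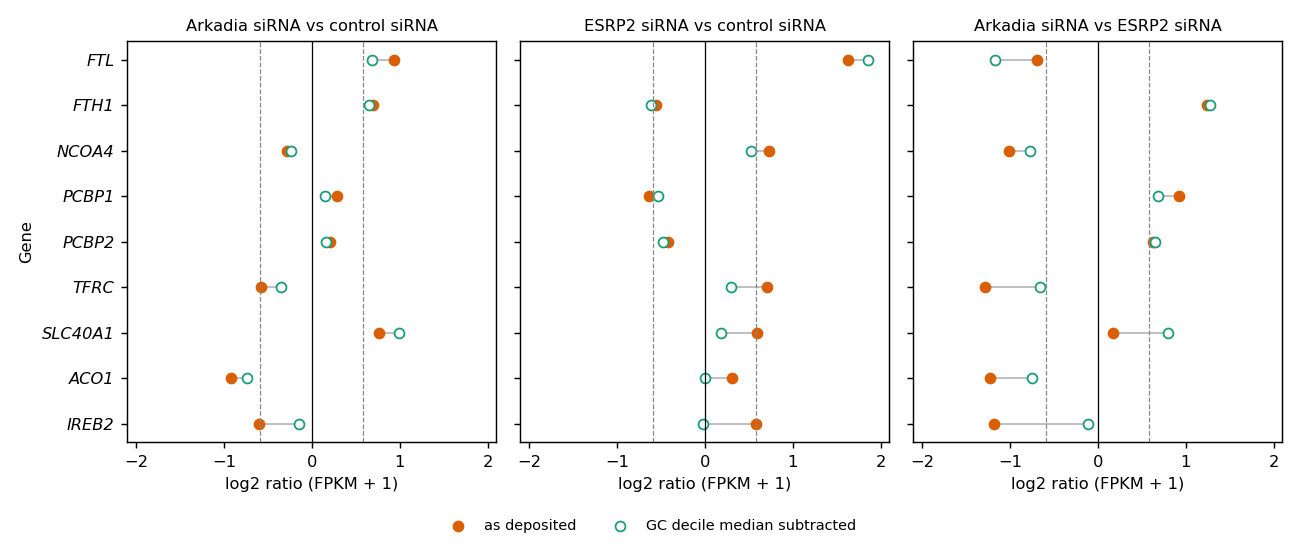
log2 differences of the 9 iron genes for 3 comparisons of libraries, as deposited (orange) and after subtraction of the GC decile median (open green). Dashed lines mark 1.5-fold. FTL with ESRP2 siRNA moves outward from 1.63 to 1.86, while IREB2 between Arkadia and ESRP2 siRNA moves from -1.19 to -0.11.

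Only NCOA4, PCBP2 and TFRC have more than 1 isoform, and of these NCOA4 alone had a large change in isoform make-up. With ESRP2 siRNA, the isoform NM_005437 stood at an FPKM of 37.0 (10.0 to 63.9), or 46.7% of NCOA4, against 0.00554, or 0.0117%, with control siRNA. With Arkadia siRNA it was 0.00778. The isoform NM_001145263 was at 37.8, 41.2 and 47.0 with Arkadia, ESRP2 and control siRNA, so the added NCOA4 of the ESRP2 siRNA library was assigned to NM_005437. The usage change, which runs from 0 for equal isoform shares to 1 for no isoform in common, was 0.47, past the threshold of 0.25 that 20.0% of 3455 multi-isoform genes passed in this comparison, and 5.35% of genes changed as much. Between Arkadia and ESRP2 siRNA it was 0.48 (26.3% of genes passed) and between Arkadia and control siRNA 0.025 (17.1% passed). Both isoforms have the same coding sequence of 1842 nt and differ at the 5′ end, where 126 nt of NM_005437 and 189 nt of NM_001145263 are not shared, beside 3 nt elsewhere. The assignment therefore rests on the reads that cover those stretches, and the table gives the isoforms different transcription starts.

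PCBP2 was spread over 7 isoforms and changed less. Its usage change was 0.09 for Arkadia siRNA and 0.15 for ESRP2 siRNA against control siRNA, and 0.19 for Arkadia against ESRP2 siRNA, all under 0.25. Isoforms that hold an internal coding exon of 93 nt (4 of 7, an exon singled out after the values were seen) made up 57.3% of PCBP2 with Arkadia siRNA, 41.4% with ESRP2 siRNA and 56.0% with control siRNA. In FPKM, isoforms with that exon summed to 185, 86.8 and 157 in these libraries, and isoforms without it to 138, 123 and 123. The lower PCBP2 level with ESRP2 siRNA lay mostly in isoforms with the exon, although the isoform intervals were wide, such as 0.851 to 68.1 for NM_031989 with ESRP2 siRNA and 4.51 to 129 with control siRNA.

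**Figure D4:**
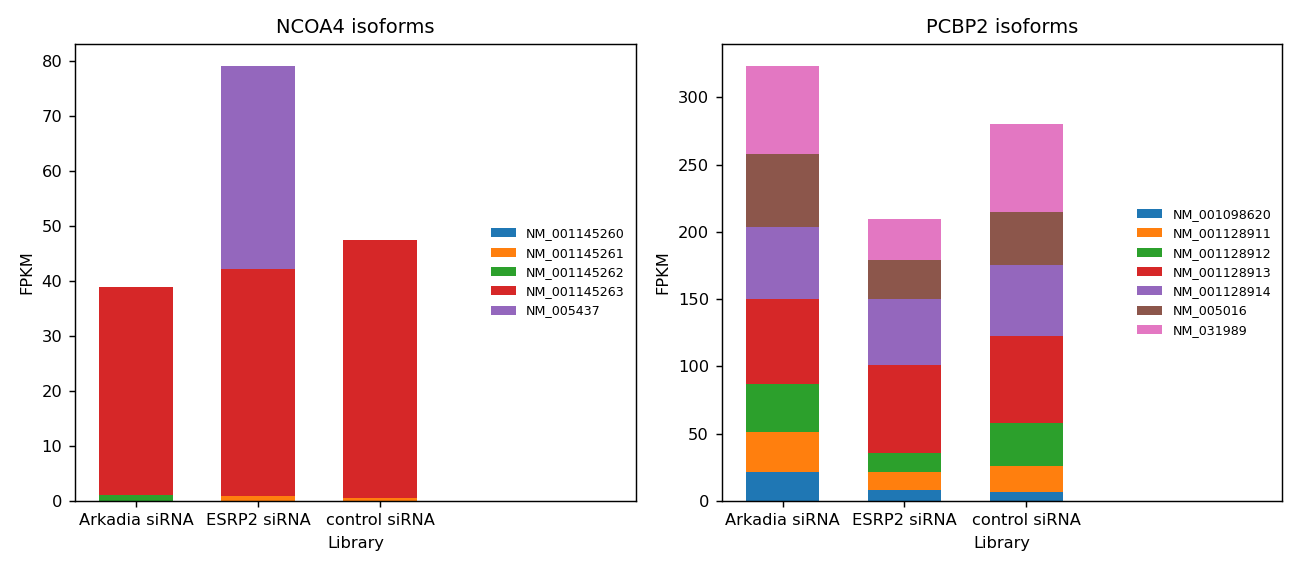
FPKM of the isoforms of NCOA4 (left) and PCBP2 (right) in the Arkadia, ESRP2 and control siRNA libraries, stacked to the gene's total. NM_005437 is visible in NCOA4 with ESRP2 siRNA (37.0) and not in the other libraries.

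Around the 9 members, 89 further iron genes were listed by role, of which 74 passed the filter. With Arkadia siRNA 15 of these were at least 1.5-fold higher and 4 lower, where 9.81% and 11.8% of all genes were. With ESRP2 siRNA 16 were higher and 6 lower, where 19.9% and 11.4% of all genes were. Other settings were tried after these counts were seen. After GC subtraction 4 were higher and 4 lower with Arkadia siRNA (6.35% and 7.01% of all genes), and 8 higher and 5 lower with ESRP2 siRNA (9.20% and 7.70%). At the upper quartile 13 were higher and 10 lower with ESRP2 siRNA (12.9% and 17.3% of all genes). Their median log2 difference was 0.12 with Arkadia siRNA and 0.19 with ESRP2 siRNA, and 0.03 and 0.11 after GC subtraction. None of the 74 had an interval apart from control siRNA in either comparison. Between Arkadia and ESRP2 siRNA, 16 were higher and 17 lower (21.2% and 30.8% of all genes). After GC subtraction 7 were higher and 14 lower (12.4% and 14.1%). In this comparison CPOX, FLVCR1 and ISCA1 had intervals that did not overlap, as 6.36% of all genes did.

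Of 12 genes for uptake and export, 2 were higher and 0 lower with Arkadia siRNA (9.81% and 11.8% of all genes), and 4 were higher and 1 lower with ESRP2 siRNA (19.9% and 11.4%). Their median log2 difference was 0.02 with Arkadia siRNA and 0.26 with ESRP2 siRNA, and 0.09 and -0.12 after GC subtraction, which turned the sign of the ESRP2 siRNA median. The heme exporter FLVCR1 was 6.26, 18.6 and 7.53 with Arkadia, ESRP2 and control siRNA, and the metal importer SLC39A8 was 11.4, 36.8 and 17. STEAP1, a metalloreductase relative, was 3.23, 9.71 and 4.52, and the importer SLC39A14 was 34.6, 49.9 and 28.8. Each was highest with ESRP2 siRNA, while MCOLN1, the 1 gene counted as lower there, was 13.8, 5.03 and 8.23. With the GC decile median subtracted, the ESRP2 siRNA differences of FLVCR1 (0.78) and SLC39A8 (0.76) stayed past 1.5-fold. Those of STEAP1 (0.55), SLC39A14 (0.57) and MCOLN1 (-0.28) did not. Transferrin itself (TF) and the second transferrin receptor TFR2 were below 1 in each library.

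Of 16 genes for iron sensing and ferritin handling, 2 were higher and 0 lower with Arkadia siRNA (9.81% and 11.8% of all genes), and 2 were higher and 2 lower with ESRP2 siRNA (19.9% and 11.4%). The list's median was 0.03 with Arkadia siRNA and 0.25 with ESRP2 siRNA, and 0.02 and -0.04 after GC subtraction. TAX1BP1, an autophagy receptor that works with NCOA4, was 25, 75.1 and 37.1 with Arkadia, ESRP2 and control siRNA, and the ubiquitin ligase subunit SKP1, a partner of the iron sensor FBXL5, was 44.2, 115 and 65.3. FBXL5, which marks IREB2 for degradation when iron is plentiful, was 8.55, 14.7 and 10.1, short of 1.5-fold with either siRNA. PCBP4, a relative of PCBP1, was 10.2, 4.01 and 8.66, and BMP6, the ligand that signals iron stores in liver, was 4.56, 2.18 and 4.61. The last 2 were lowest with ESRP2 siRNA. With the GC decile median subtracted, the ESRP2 siRNA differences of TAX1BP1 (0.49) and SKP1 (0.21) fell inside 1.5-fold. Those of PCBP4 (-0.61) and BMP6 (-0.71) did not.

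Heme genes had 3 higher and 2 lower of 17 with Arkadia siRNA (9.81% and 11.8% of all genes), and 4 higher and 1 lower with ESRP2 siRNA (19.9% and 11.4%). Their median was 0.10 with Arkadia siRNA and 0.24 with ESRP2 siRNA, and -0.05 and 0.17 after GC subtraction. TMEM14C, which moves heme precursors in mitochondria, was 34.1, 105 and 42.3 with Arkadia, ESRP2 and control siRNA, and the mitochondrial transporter ABCB10 was 18.5, 51.8 and 24.4. HMOX1, which breaks heme down and frees its iron, was 9.68, 5.47 and 4.17. ALAD, an early enzyme of heme synthesis, was 5.40, 9.62 and 11.2, and so was lowest with Arkadia siRNA.

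Mitochondrial iron-sulfur genes had 5 higher and 1 lower of 19 with Arkadia siRNA, where 9.81% and 11.8% of all genes were. With ESRP2 siRNA 5 were higher and 1 lower, where 19.9% and 11.4% of all genes were. Their median was 0.20 with Arkadia siRNA and 0.30 with ESRP2 siRNA, and 0.26 and 0.18 after GC subtraction. The iron importer SLC25A28 was 28.4, 12.4 and 13.1 with Arkadia, ESRP2 and control siRNA, and the cluster assembly factor BOLA3 was 129, 90.4 and 62.5. ISCA2 was 21.7, 33.4 and 17.1, and its partner ISCA1 was 19.8, 57.8 and 32.4. With the GC decile median subtracted, the ESRP2 siRNA differences of ISCA2 (0.52) and ISCA1 (0.30) fell inside 1.5-fold. Those of SLC25A28 (0.81) and BOLA3 (0.99) with Arkadia siRNA did not. Cytosolic iron-sulfur genes had 3 higher and 1 lower of 10 with Arkadia siRNA (9.81% and 11.8% of all genes) and 1 higher and 1 lower with ESRP2 siRNA (19.9% and 11.4%). Their median was 0.19 with Arkadia siRNA and -0.23 with ESRP2 siRNA, and -0.03 and 0.09 after GC subtraction, which turned both signs. There FAM96B was 188, 97.9 and 238, GLRX3 was 80.9, 221 and 118, FAM96A was 25.1, 34.6 and 45.8, and CIAO1 was 45.4, 24.2 and 25. By the same subtraction CIAO1 with Arkadia siRNA was 0.58, just short of 1.5-fold. FAM96B (-1.04) and GLRX3 (0.59) with ESRP2 siRNA and FAM96A (-0.61) with Arkadia siRNA stayed past it.

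**Figure D5:**
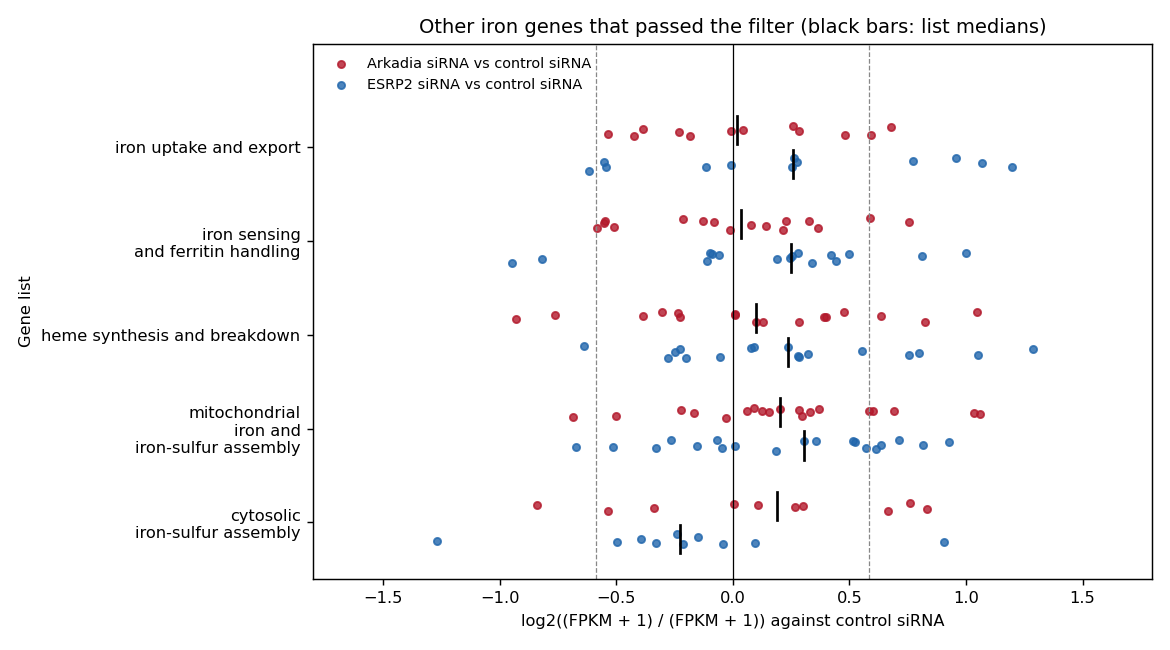
log2((FPKM + 1)/(FPKM + 1)) against control siRNA for the 74 further iron genes that passed the filter, by list, with Arkadia siRNA above ESRP2 siRNA in each list. Points are genes, black bars list medians and dashed lines 1.5-fold. Most points lie between the dashed lines. With Arkadia and ESRP2 siRNA, 15 and 16 of 74 lie beyond the right one, where 9.81% and 19.9% of all genes do. Beyond the left one lie 4 and 6, where 11.8% and 11.4% of all genes do.

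Genes whose differences lay nearest to those of FTL and FTH1 were sought among 915 others with a mean FPKM of at least 100, by distance over both log2 differences, that is over 3 libraries. For FTL these were DBI (distance 0.23), LDHB (0.32) and C20orf24 (0.38). For FTH1 they were ATP6V0D1 (0.03), PRMT1 (0.03) and NT5DC2 (0.10). LDHB had an FPKM of 965, 1694 and 451 and ATP6V0D1 of 164, 69.2 and 102 with Arkadia, ESRP2 and control siRNA.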

How the data were processed

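The authors deposited FPKM values of genes and RefSeq isoforms, each with a lower and an upper bound. The submitters' processing notes name Cuffdiff, Cufflinks 2.1.1, Bowtie2 2.1.0, TopHat2 2.0.10 and the build hg19. Neither the scaling of libraries nor the use of strand is given in the sources used here. Positions of transcripts' hairpins are on GRCh38 and were not mixed with hg19. Differences on the log2(FPKM + 1) scale were computed from these values with pandas 2.3.3. They cover the 11870 genes with status OK, a mean FPKM of at least 1 and at least 1 isoform of 300 nt or more. Every difference is between 2 libraries, so no test was run and no p-value is given. "Higher" and "lower" in counts mean 1.5-fold on this scale. Depth was implied from the FPKM of 1 read in genes with 1 isoform over 1000 nt, which stood at 0.114, 0.0823 and 0.0858 per kilobase with Arkadia, ESRP2 and control siRNA. Read numbers are estimates. GC content came from GENCODE 29 transcripts, matched for 99.1% of genes compared. Genes named from the lists are the up to 4 per list with the largest difference past 1.5-fold against control siRNA. FBXL5, TF, TFR2, MCOLN1, CPOX and ALAS2 were named after their values were seen. Isoform usage needed a summed FPKM of at least 5. The functions were tested on simulated data. The members, lists and alternatives were chosen with earlier results of these data known.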

Additional observations from a re-analysis of the deposited data

How the results depend on the processing

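At 1.5-fold, 5 members differed with Arkadia siRNA, 5 with ESRP2 siRNA and 8 between Arkadia and ESRP2 siRNA. Of all genes 21.6%, 31.3% and 52.0% differed in these comparisons. After subtraction of length decile medians the member counts were 3 and 2 against control siRNA. All 11870 genes were then split 1095 higher and 1314 lower with Arkadia siRNA, and 1720 and 1834 with ESRP2 siRNA. After GC subtraction 2 members differed with ESRP2 siRNA, where 9.20% of all genes were higher and 7.70% lower. A 2-fold size on the log2(FPKM + 1) scale left 0, 1 and 5 members. At 2-fold 1.68%, 5.45% and 8.90% of all genes were higher, and 2.24%, 2.42% and 15.5% lower. A demand for intervals that do not overlap left 0, 1 and 0 members, where 0.438%, 1.28% and 6.36% of all genes passed. Both rules are stricter. The pseudocount of 0.1, both rescalings, other filters on mean FPKM and summed isoforms kept the total counts within 1.5 times, but not always the same members. With ESRP2 siRNA, 4 members were higher and 1 lower before rescaling. At the upper quartile FTL alone was higher, and FTH1, PCBP1 and PCBP2 were lower (12.9% and 17.3% of all genes). The count of members with changed isoform usage did not move under the 2 settings tried. The upper quartile moved the median of all genes by -0.15 for ESRP2 against control siRNA, and the split of all genes from 2361 higher and 1354 lower to 1526 and 2054. It moved that median by 0.14 for Arkadia against ESRP2 siRNA, with 3127 and 2967 in place of 2521 and 3656. Length subtraction gave 1720 and 1834, and 3026 and 2911. For the 74 further iron genes, GC subtraction gave 8, 13 and 21 past 1.5-fold in the 3 comparisons, in place of 19, 22 and 33. Of all genes 6.35%, 9.20% and 12.4% were then higher, and 7.01%, 7.70% and 14.1% lower. Length subtraction split the 74 genes 13 higher and 6 lower with Arkadia siRNA and 15 and 9 with ESRP2 siRNA. The split of all genes by this setting is given above. These settings were added for the lists after seeing the data. Of 27 member differences, 26 kept their sign under all settings, and IREB2 with ESRP2 siRNA ran from -0.02 to 0.59. ACO1 with ESRP2 siRNA, counted as kept, ran from 0.00 to 0.32. The 27 values are not independent, since the 3 comparisons share libraries. FTL with ESRP2 siRNA ran from 1.46 to 1.86. No paired analysis was possible because each group has 1 library. Left-out replicates could not be tried for the same reason.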

Other observations

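Of the 17 genes with an iron-responsive type of hairpin in the 5′ UTR, 9 passed the filter on mean FPKM. FTL, FTH1 and SLC40A1 are among them, SLC40A1 only through the knockdown libraries. With ESRP2 siRNA 3 of the 9 were at least 1.5-fold higher and 1 lower, where 19.9% and 11.4% of all genes were. ENC1, at 1.86, 3.78 and 1.79 with Arkadia, ESRP2 and control siRNA, was higher with ESRP2 siRNA, and CSF1, at 2.39, 1.72 and 3.17, was lower. PRPF18, ZER1 and ZFP161 were neither in either comparison with control siRNA. ALAS2, the erythroid enzyme of heme synthesis that carries a known element, was below an FPKM of 1 in each library. The list was made from sequence alone, but after the members' values were known.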
